A study of Mus musculus with 12 samples.

Results

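The fibrillar collagens are the collagens whose triple helices pack side by side into the banded fibrils of connective tissue. The 10 genes described here were taken by gene symbol from the 36186 genes of the count table: Col1a1 and Col1a2 of type I, Col3a1 of type III, Col5a1, Col5a2 and Col5a3 of type V, Col2a1 of type II, Col11a1 and Col11a2 of type XI, and Col27a1 of type XXVII. All 10 were found, and all 10 passed the filter on low counts in each of the 4 comparisons.

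Each chain is made as a procollagen that is hydroxylated and folded in the endoplasmic reticulum, trimmed of its propeptides outside the cell and then crosslinked. Type I and type III chains form the bulk of fibrils in most soft organs, with type V at the core of the fibril as a regulator of its diameter. Type II and type XI chains are the matching major and core chains of cartilage, and are called cartilage-type here; in the kidney the interstitial fibrils are mainly of types I and III and are made by stromal cells.

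The samples were whole kidneys of mouse embryos at E18.5, profiled by RNA-seq with 3 libraries per genotype, 12 in all. The groups were wild type, Hoxa9,10,11-/- HoxC9,10,11+/- (called Hoxa null Hoxc heterozygous below), Hoxa9,10,11+/- HoxC9,10,11-/- (Hoxa heterozygous Hoxc null) and Hoxa9,10,11-/- HoxC9,10,11-/- (double null), all on a mixed strain background. The study asked which roles these neighbouring and paralogous Hox genes share in the developing kidney. The label of the double null group limits it as a model. The study's text describes its sequenced mutants as heterozygous or wild type for Hoxa11, and which of them has which allele is not given. It reports that mutants null for all these genes had no kidneys that could be detected at E18.5.

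The libraries held between 28616877 and 47067903 counts (median 39328488). Levels are given as CPM, the count of a gene relative to the TMM-scaled library size, and per kb of transcript where genes are compared with each other. The 3 Hoxa heterozygous Hoxc null libraries came from another sequencing run than the other 9, so run and genotype cannot be told apart for that group. Library 20 of the Hoxa null Hoxc heterozygous group stood apart from the rest. Its mean correlation of log2 CPM with the other libraries was 0.941, against 0.962 to 0.974 for the other 11, it lay at -100.1 on a first component that held 29.98% of the variance over 16260 genes (the other libraries between -28.7 and 39.3), and it had the lowest total count. The comparisons of its group are given with and without it. Embryo sex was unequal: Xist, the RNA that coats the inactive X of females, was above 1 CPM in 0 of 3 wild type, 2 of 3 Hoxa null Hoxc heterozygous, 1 of 3 Hoxa heterozygous Hoxc null and 2 of 3 double null libraries.

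The kidney identity of the samples was checked on 8 markers (Six2, Wt1, Pax2, Nphs1, Slc34a1, Slc12a1, Umod and Aqp2), all above 1 CPM in every library. The highest CPM was that of Slc12a1 in 8 libraries and that of Slc34a1 in the other 4. Summed, they stood at 2298, 1749 and 1805 CPM in wild type libraries 30, 37 and 55, at 1316, 2129 and 2449.7 CPM in Hoxa null Hoxc heterozygous libraries 20, 31 and 33, at 2632, 1778 and 1807 CPM in Hoxa heterozygous Hoxc null libraries AC38, AC110 and AC115, and at 2229.7, 3021 and 1937 CPM in double null libraries 24, 27 and 29. The groups overlapped in this sum, with library 20 the lowest. The targeted Hox genes themselves carry frameshift alleles whose transcripts can persist, so their levels check the genotypes little. Between double null and wild type kidneys, Hoxa10 fell by 0.49 on the log2 scale (SE 0.11, adjusted p = 0.027) and Hoxc10 fell by 0.78 (SE 0.14, adjusted p = 0.0127), while Hoxa9, Hoxa11, Hoxc9 and Hoxc11 did not pass the test; with 1 library left out the call of Hoxa10 held in 2 and that of Hoxc10 in 5 of 6 fits, and both were lost when all 12 libraries shared a fit, with or without Xist as a covariate.

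In wild type kidneys the 10 genes spanned a wide range of levels. Per kb of the longest coding transcript, Col3a1 was the most abundant at 278 ± 17.8 CPM per kb (SD, n = 3), followed by Col1a2 at 218 ± 7.86 and Col1a1 at 140 ± 4.27. These values placed them at ranks 195, 245 and 421 among 32117 genes with a length. The type V chains Col5a1 and Col5a2 stood at 30.3 ± 1.21 and 27.2 ± 0.903 CPM per kb. Col2a1 came next at 12.7 ± 3.58 CPM per kb, then Col27a1 at 4.08 ± 0.164 and Col11a1 at 2.84 ± 0.350. The lowest were Col11a2 at 0.988 ± 0.393 and Col5a3 at 0.678 ± 0.115 CPM per kb, which overlapped between libraries and were not separated beyond their spread.

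In double null kidneys the same 3 chains led, at ranks 57 (Col3a1), 81 (Col1a2) and 111 (Col1a1) per kb. The order changed lower down, where Col5a3 rose to rank 10088 from 13399 and lay at 4.00 ± 1.09 CPM per kb, within the spread of Col2a1 at 5.93 ± 3.74. Col11a2 ended the order at 0.135 ± 0.0892 CPM per kb, at rank 15463. All 10 genes together took 0.419 ± 0.00993% of the counts of wild type libraries and 1.18 ± 0.105% of those of double null libraries (n = 3 each).

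Promoter sequence was at hand for 7 of the 10 members in the RefSeq table for build GRCm38.p6: Col1a2, Col3a1, Col5a1, Col5a3, Col11a1, Col11a2 and Col27a1. The 250 bases before the RefSeq start are shown for a type I and a type III chain that were higher in the double null kidneys and for both type XI chains, which were not. All 4 lie on the + strand, 5′ to 3′, with matches to CCAAT or TATAAA, on either strand, in capitals: Col1a2 at chr6:4505368-4505617, Col3a1 at chr1:45311288-45311537, Col11a1 at chr3:114030290-114030539 and Col11a2 at chr17:34038888-34039137.
Col1a2: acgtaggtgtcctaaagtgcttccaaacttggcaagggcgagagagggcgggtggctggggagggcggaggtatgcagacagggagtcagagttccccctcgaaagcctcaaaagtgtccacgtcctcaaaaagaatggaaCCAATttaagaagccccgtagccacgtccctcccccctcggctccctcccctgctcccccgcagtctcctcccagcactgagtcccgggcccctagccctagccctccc
Col3a1: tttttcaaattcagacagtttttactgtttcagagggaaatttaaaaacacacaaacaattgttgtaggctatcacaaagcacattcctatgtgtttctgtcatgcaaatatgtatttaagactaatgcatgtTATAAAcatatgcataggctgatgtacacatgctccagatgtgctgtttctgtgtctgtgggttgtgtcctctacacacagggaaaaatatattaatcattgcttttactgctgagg
Col11a1: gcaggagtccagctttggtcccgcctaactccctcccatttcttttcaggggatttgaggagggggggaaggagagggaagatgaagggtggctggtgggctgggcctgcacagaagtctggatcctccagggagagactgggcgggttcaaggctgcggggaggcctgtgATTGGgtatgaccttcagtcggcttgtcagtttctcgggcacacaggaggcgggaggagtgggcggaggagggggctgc
Col11a2: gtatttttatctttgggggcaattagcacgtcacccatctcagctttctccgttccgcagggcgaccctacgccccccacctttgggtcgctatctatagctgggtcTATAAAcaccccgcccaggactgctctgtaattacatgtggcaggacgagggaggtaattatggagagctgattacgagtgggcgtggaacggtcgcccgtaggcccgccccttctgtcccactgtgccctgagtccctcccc
Col1a2 held CCAAT 109 bases before its start and Col11a1 its reverse complement ATTGG 79 bases before. TATAAA lay 117 bases before the start of Col3a1 and 143 bases before that of Col11a2. Over all 7 windows CCAAT was found in 3, against 33.8% of 32851 promoters, and TATAAA in 2, against 12.4%; no matches overlapped in these windows. A match is a run of letters and not a known site, and each motif was found both in a chain that was higher in the mutant and in a chain that was not. On the chromosomes, Col3a1 and Col5a2 are neighbours on chromosome 1, 24614 bases apart and on opposite strands; the other members lie on different chromosomes.

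The main comparison set double null kidneys, which by label lack every targeted Hoxa and Hoxc allele, against wild type. The type I, III and V chains were higher and the cartilage-type and type XXVII chains were lower or not separated. Each comparison was tested over all genes with edgeR's quasi-likelihood test, and a gene passed at a Benjamini-Hochberg adjusted p below 0.05. Of the 10 members 8 passed, where 13.7% of 15839 genes tested did: 6 were higher, as were 6.31% of genes, and 2 were lower (Col27a1 and Col11a2), as were 7.40%. The call of Col11a2 rests on low counts in the double null libraries and held in 3 of 6 fits with 1 library left out. Col11a2 passed the filter on low counts through the wild type libraries. The same 8 members had libraries that did not overlap between the groups, which held for 38.1% of genes. The median log2 fold change was 1.14 over the members and -0.01 over all genes tested. In whole organs, more cells that make a transcript and more transcript per cell cannot be told apart.

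**Figure D1:**
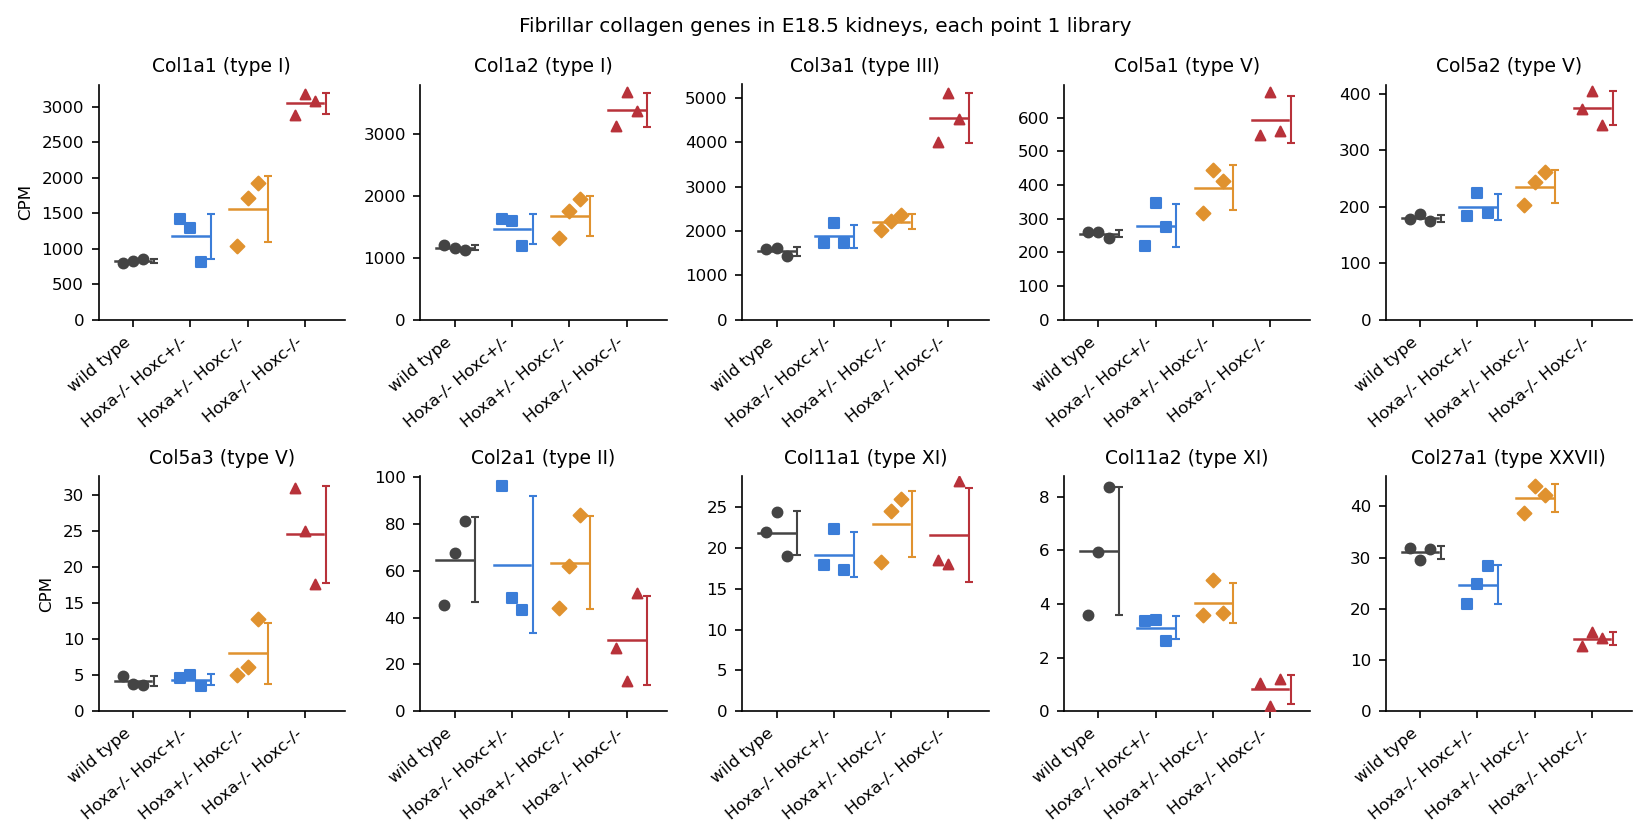
CPM of each fibrillar collagen gene (vertical axis, from 0) in the 4 genotypes (horizontal axis), with a point for each library, a line at the mean and a bar of ±1 SD (n = 3). The 3 double null libraries lie above all 9 others for the type I, III and V genes and below all 9 others for Col11a2 and Col27a1.

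Col1a1, which encodes the alpha chain present in more copies in the type I molecule, was at 805, 826 and 856 CPM in wild type libraries 30, 37 and 55 and at 2888, 3179 and 3079 CPM in double null libraries 24, 27 and 29. In the groups between, it stood at 1427, 1288 and 814 CPM (Hoxa null Hoxc heterozygous libraries 20, 31 and 33) and at 1043, 1723 and 1922 CPM (Hoxa heterozygous Hoxc null libraries AC38, AC110 and AC115). Every double null library was thus above every other library, while 1 of the Hoxa null Hoxc heterozygous libraries lay within the wild type range. The log2 fold change between double null and wild type was 1.88 (SE 0.084, adjusted p = 2.0e-04). Its partner chain Col1a2 was at 1210, 1165 and 1126 CPM in wild type and at 3135, 3681 and 3379 CPM in double null libraries, with no overlap. The log2 fold change of Col1a2 was 1.54 (SE 0.094, adjusted p = 4.3e-04). The level of Col1a1 relative to Col1a2, per kb, was 0.642 ± 0.0426 in wild type, 0.711 ± 0.0874 in Hoxa null Hoxc heterozygous, 0.826 ± 0.10 in Hoxa heterozygous Hoxc null and 0.810 ± 0.0278 in double null libraries (SD, n = 3). Double null and Hoxa heterozygous Hoxc null libraries did not overlap wild type in this quotient, and it was not tested.

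Col3a1, the only chain of type III collagen, was at 1588, 1617 and 1433 CPM in wild type and at 4005, 5121 and 4517 CPM in double null libraries. It was at 1743, 2173 and 1730 CPM in Hoxa null Hoxc heterozygous and at 2026, 2239 and 2363 CPM in Hoxa heterozygous Hoxc null libraries. Here all 9 mutant libraries were above the 3 wild type libraries, and the double null group was above the others without overlap. The log2 fold change between double null and wild type was 1.56 (SE 0.12, adjusted p = 9.2e-04). Per kb, Col3a1 was at 1.99 ± 0.179 times the level of Col1a1 in wild type and at 1.59 ± 0.121 times in double null libraries (n = 3), and the Hoxa null Hoxc heterozygous libraries spanned both, from 1.30 in library 20 to 2.26 in library 33.

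The type V chains, which assemble with type I in the same fibrils, followed with smaller and larger differences. Col5a1 was at 261, 261 and 243 CPM in wild type and at 548, 675 and 559 CPM in double null libraries. Col5a2 was at 178, 187 and 175 CPM in wild type and at 373, 405 and 346 CPM in double null libraries. Neither gene overlapped between the groups; the log2 fold change was 1.22 (SE 0.10, adjusted p = 0.00131) for Col5a1. For Col5a2 it was 1.06 (SE 0.083, adjusted p = 0.00108). Col5a3, a minor type V chain, went from 4.96, 3.78 and 3.71 CPM in wild type to 31, 24.9 and 17.6 CPM in double null libraries. Its log2 fold change of 2.56 (SE 0.23, adjusted p = 0.0016) was the largest rise among the members. Hoxa heterozygous Hoxc null library AC115 held 12.8 CPM of Col5a3, against 5.08 and 6.16 CPM in the other libraries of its group. Over all 3 genes, type V made up 8.38 ± 0.0708% of the summed type I, III and V level per kb in wild type and 6.26 ± 0.390% in double null libraries (n = 3), with 7.37 ± 1.27% in Hoxa null Hoxc heterozygous and 7.91 ± 0.359% in Hoxa heterozygous Hoxc null libraries. Library 20 was at 5.96%, within the double null range, and the share was not tested.

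The cartilage-type chains did not rise with them. Col2a1, the chain of type II collagen, was at 45.2, 67.7 and 81.3 CPM in wild type, at 96.2, 48.3 and 43.4 CPM in Hoxa null Hoxc heterozygous, at 44.2, 62.2 and 83.9 CPM in Hoxa heterozygous Hoxc null and at 27.2, 12.9 and 50.7 CPM in double null libraries. The replicates were spread widely in every group, and double null library 29 lay above wild type library 30. The log2 fold change was -1.10 (SE 0.44, adjusted p = 0.131) and did not pass; without double null library 29 it was -1.69 and passed (adjusted p = 0.035), and in the other 5 leave-out fits it did not pass and lay between -1.30 (without wild type library 30) and -0.73 (without double null library 27, adjusted p = 0.208). With Xist as a covariate it was -0.87 (adjusted p = 0.387). Col11a1, a type XI chain also found in non-cartilage fibrils, was at 22, 24.4 and 19 CPM in wild type and at 18.52, 18.04 and 28.2 CPM in double null libraries. These overlapped, with a log2 fold change of -0.02 (SE 0.19, adjusted p = 0.963) that turned positive without wild type library 37 (0.08) and without double null library 24 (0.08) or 27 (0.10). Col11a2, the other type XI chain, was at 3.61, 5.95 and 8.36 CPM in wild type and at 1.04, 0.204 and 1.21 CPM in double null libraries, all below wild type. It fell by 2.87 on the log2 scale (SE 0.56, adjusted p = 0.0189), on 8 counts in double null library 27, so that it passed the filter on low counts through the wild type libraries; with no such filter its adjusted p was 0.0123. The call of Col11a2 was lost without wild type library 37 (adjusted p = 0.0655), wild type library 55 (0.0685) or double null library 24 (0.0563), and held without any of the other 3.

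Col27a1, the chain of type XXVII collagen, which is known from cartilage and other developing tissues, was at 31.8, 29.6 and 31.7 CPM in wild type and at 12.8, 15.5 and 14.3 CPM in double null libraries. It stood at 20.9, 24.8 and 28.4 CPM in Hoxa null Hoxc heterozygous and at 38.6, 44.0 and 42.1 CPM in Hoxa heterozygous Hoxc null libraries. The 4 groups did not overlap, with the Hoxa heterozygous Hoxc null group at the top and the double null group at the bottom. The top group came from another sequencing run, so run and genotype cannot be told apart for it. Against wild type its log2 fold change was 0.15 with a correction for GC content and length (edgeR, adjusted p = 0.464). Between double null and wild type Col27a1 fell by 1.13 on the log2 scale (SE 0.10, adjusted p = 0.0016). Col24a1, the remaining fibrillar collagen gene outside the 10, was at 6.23, 4.47 and 6.48 CPM in wild type and at 3.68, 2.90 and 3.21 CPM in double null libraries. It fell by 0.81 (SE 0.20, adjusted p = 0.0365), a call that held in 0 of the 6 fits that left 1 library out (adjusted p 0.0515 to 0.13).

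Under each of 8 alternative settings the same 8 members passed between double null and wild type, Xist as a covariate among them. Over all genes 2171 passed, and between 535 (without wild type library 37) and 3386 (without wild type library 30) with 1 library left out. The members that passed in those fits numbered 7 to 9. As members were chosen with earlier results of these data known, the steadiness of these counts was not compared. The count over all genes was 633 without wild type library 55, 793 without double null library 24 and 1101 without double null library 27.

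**Figure D2:**
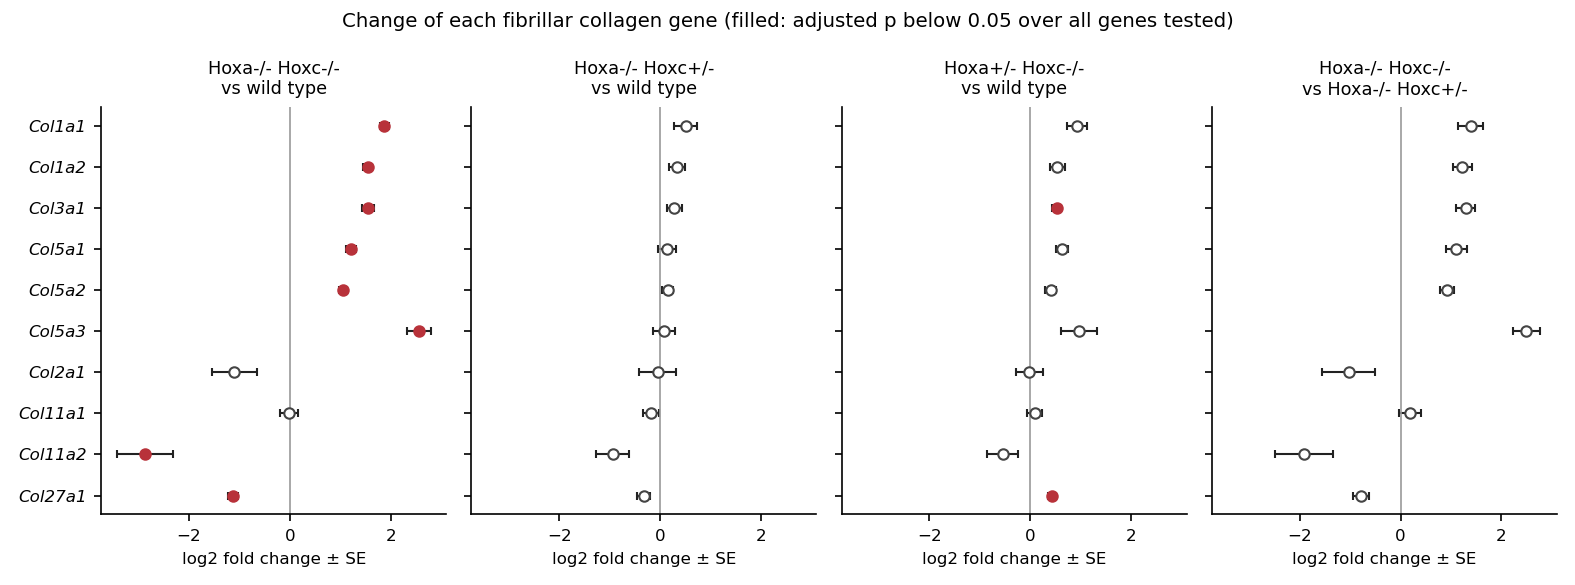
Log2 fold change (horizontal axis) of each fibrillar collagen gene (vertical axis) in the 4 comparisons, with bars of ±1 standard error; filled points passed the test over all genes. In the comparison of double null with wild type 8 points are filled, that of Col11a2 on low counts in the double null libraries, and in both comparisons with the Hoxa null Hoxc heterozygous group none is.

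The comparisons of the other mutant groups ask how far a remaining wild type Hoxa or Hoxc allele leaves the kidney like wild type; they share the wild type libraries with each other and with the main comparison. Between Hoxa null Hoxc heterozygous and wild type kidneys 0 of 10 members passed edgeR's test, as did 0% of 15789 genes. Before adjustment, 360 genes had p below 0.05, and 1 of them was a member (Col11a2). DESeq2 called 22 genes and 0 members, the fit of all 12 libraries 2 genes, and edgeR without library 20 called 8 genes and again 0 members. The log2 fold changes ran from -0.94 (Col11a2, SE 0.33) to 0.51 (Col1a1, SE 0.22), with a median of 0.11. Libraries did not overlap for 3 of 10 members (Col3a1 higher, Col11a2 and Col27a1 lower), against 8.35% of genes. Without library 20 the Col1a1 libraries of this group stood at 1288 and 814 CPM, so the group was spread with or without it.

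Between Hoxa heterozygous Hoxc null and wild type kidneys 2 of 10 members passed, against 2.36% of 15902 genes, both higher, against 0.836% of genes. These were Col3a1 with a log2 fold change of 0.52 (SE 0.091, adjusted p = 0.0375) and Col27a1 with 0.43 (SE 0.079, adjusted p = 0.0429). Libraries did not overlap for 7 of 10 members, all higher in the mutant (the type I, III and V genes and Col27a1), against 26.7% of genes. Col1a1 had a larger log2 fold change of 0.93 (SE 0.21, adjusted p = 0.0687) but a wider spread between mutant libraries. Each call changed with the libraries used. Without wild type library 37 or 55, or mutant library AC110 or AC115, no member passed (adjusted p 0.121 to 0.171 for Col3a1 and 0.126 to 0.216 for Col27a1); without wild type library 30, Col27a1 was at 0.0501 and Col3a1 at 0.040. Without mutant library AC38, which was the lowest of its group in all 6 type I, III and V genes, 6 members and 339 genes passed. DESeq2 called the same 6 members and 1309 genes. No member passed in the fit of all 12 libraries, with Xist as a covariate, with the GC content and length correction, or with limma. That correction also made the log2 fold changes smaller: 0.15 for Col27a1 (adjusted p = 0.464), 0.39 for Col3a1 (adjusted p = 0.156) and 0.30 for Col5a1, which was at 0.63 without it. Sequencing run cannot be told apart from genotype here.

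The comparison of double null with Hoxa null Hoxc heterozygous kidneys asks about the step from 1 to 0 wild type Hoxc alleles by label. By the study's text the 2 groups may also differ in Hoxa11. The comparison shares the double null libraries with the main comparison. No member passed edgeR's test (0 of 10), as did 0% of 15764 genes, although libraries did not overlap for 8 of 10 members, against 23.0% of genes. Before adjustment, 1787 genes and 8 members had p below 0.05, and DESeq2 called 554 genes and the same number of members, 8. The log2 fold change was 1.39 (SE 0.24, adjusted p = 0.158) for Col1a1. For Col5a3 it was 2.50 (SE 0.27, adjusted p = 0.0884), and for Col27a1 -0.78 (SE 0.16, adjusted p = 0.192). This count depended on library 20. Without it 7 of 10 members passed, against 4.30% of 15986 genes: the 6 type I, III and V genes were higher, Col1a1 by 1.56 (SE 0.20, adjusted p = 0.0195), and Col27a1 fell by 0.88 on the log2 scale (SE 0.12, adjusted p = 0.0195). With library 20 kept, 7 members also passed when all 12 libraries shared a fit (557 genes) and with Xist as a covariate in that fit (667 genes), and 0 passed with limma.

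The type I, III and V chains and the cartilage-type chains were then summed per kb in each library. The sum of type I, III and V was 694 ± 22.2 CPM per kb in wild type, 876 ± 129 in Hoxa null Hoxc heterozygous, 1058 ± 180.4 in Hoxa heterozygous Hoxc null and 2098 ± 186 in double null libraries (SD, n = 3). The cartilage-type sum was 16.5 ± 3.82, 15.3 ± 5.66, 16.1 ± 4.40 and 8.88 ± 4.52 CPM per kb in the same order; in the Hoxa null Hoxc heterozygous group it was 21.7 in library 20 and 12.9 and 11.2 in libraries 31 and 33. Double null libraries were apart from all others in the first sum and overlapped them in the second. As a percent of the type I, III and V sum, the cartilage-type chains were at 1.74, 2.46 and 2.96% in wild type, at 2.38, 1.32 and 1.52% in Hoxa null Hoxc heterozygous, at 1.36, 1.45 and 1.70% in Hoxa heterozygous Hoxc null and at 0.412, 0.215 and 0.663% in double null libraries. The double null values were below all others, and the 3 other groups overlapped or, for Hoxa heterozygous Hoxc null against wild type, were separated by less than the wild type spread. The group means were 2.39 ± 0.612%, 1.74 ± 0.563% (1.42% without library 20), 1.5 ± 0.174% and 0.430 ± 0.224%, and a sum over chosen genes was not tested. Within the cartilage-type chains, Col2a1 was at 4.56 ± 1.70 times the level of Col11a1 per kb in wild type and at 2.00 ± 0.834 times in double null libraries.

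**Figure D3:**
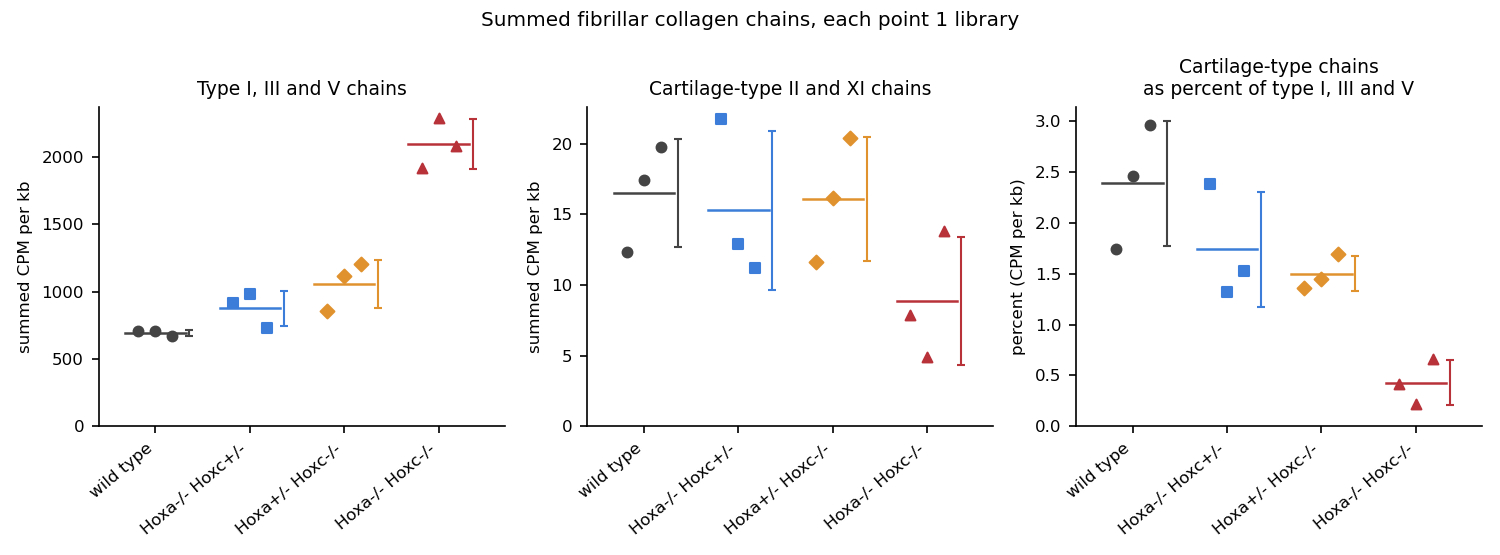
Summed level of the type I, III and V chains and of the cartilage-type chains (CPM per kb, vertical axes from 0) and the second as a percent of the first, by genotype, with a point for each library, a line at the mean and a bar of ±1 SD (n = 3). The percent is lowest in the 3 double null libraries, at 0.215 to 0.663%.

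Likeness of pattern was described by Pearson's r of log2 CPM over the 12 libraries, which share the 4 genotypes and the sequencing runs. The 5 genes most like Col1a1 were Col1a2 (r = 0.983), Fbln2 (0.977), LOC101055828 (0.971), Col8a2 (0.969) and Smoc2 (0.959). The 4 that are not fibrillar collagens include the short-chain collagen gene Col8a2 and the matrix genes Fbln2 and Smoc2, and r for these 5 stayed between 0.941 and 0.979 without the libraries farthest from the median of Col1a1, double null 27 and 29. The 3 double null libraries stand above the other 9 for Col1a1, so these r include the difference of that group from the rest. How far they rest on it was not tested.

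Col2a1 followed another set. Its 5 nearest genes were Rcc2 (r = 0.981), Smarcd1 (0.973), BC068157 (0.972), Spdl1 (0.970) and Hnrnpdl (0.963), none of them a collagen. Among the kidney markers, Six2, the transcription factor of nephron progenitors, ranked 8 among all genes with r = 0.959 and Spearman's rho = 0.860, and r was 0.955 without library 20 and 0.871 without double null library 27 and library 20, the farthest from the median. Six2 was at 67.2, 83.9 and 105 CPM in wild type and at 27.9, 13.2 and 58.4 CPM in double null libraries, the same order of libraries within each of these groups as for Col2a1. The progenitor and early nephron genes Pax2 (0.946) and Wt1 (0.893) were also high in r, at 0.895 and 0.652 without the same 2 libraries. Of the transcription factors upstream of Col2a1 in chondrocytes, Sox9 was at 0.894, Sox5 at 0.623 (0.268 without them) and Sox6 at -0.57. With the other kidney markers r was negative. It was -0.90 for Slc12a1, a loop of Henle marker, -0.68 for Slc34a1, -0.57 for Nphs1, -0.53 for Umod and -0.16 for Aqp2. Without the same 2 libraries it was -0.89, -0.77, -0.071, 0.23 and 0.10 in that order. With the other members r ran from 0.868 (Col11a2) to -0.70 (Col3a1), and with the 9 measured cartilage genes it went both ways, from 0.935 for Col9a1 (0.773 without the same 2 libraries) to -0.61 for Matn4 (-0.29 without them). Six2 itself had a log2 fold change of -1.37 (SE 0.46, adjusted p = 0.0868) between double null and wild type, and of -2.06 (adjusted p = 0.0177) without double null library 29, the only 1 of the 6 leave-out fits in which it passed.

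**Figure D4:**
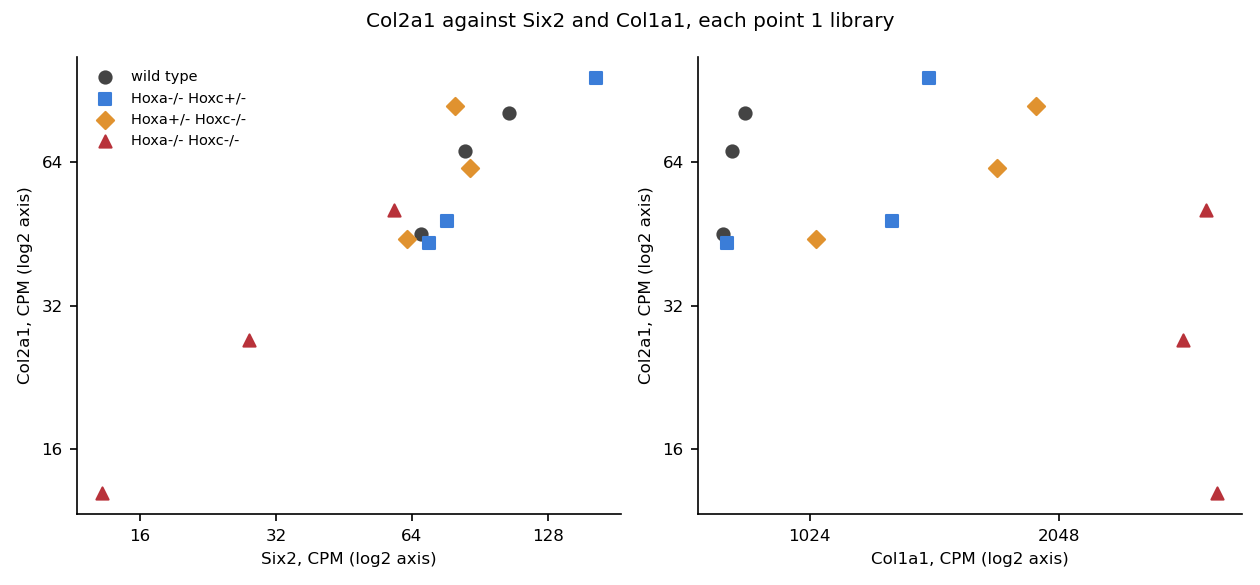
Col2a1 against Six2 and against Col1a1 in CPM on log2 axes, with a point for each of the 12 libraries marked by genotype. Col2a1 rises with Six2 over the 12 libraries (r = 0.959), and the double null libraries lie to the right of the others for Col1a1.

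The enzymes and partners of fibril assembly were read from gene lists. Over all genes tested between double null and wild type, 6.31% were higher and 7.40% lower, with a median log2 fold change of -0.01. Of 24 genes of procollagen synthesis, folding and export tested between double null and wild type, 7 were higher and 0 lower, with a median log2 fold change of 0.21; Sparc, a collagen-binding matricellular protein, had the highest CPM of the list in 9 of 12 libraries. Sparc rose by 0.68 (SE 0.086, adjusted p = 0.00491) and Creb3l1, a transcription factor known to drive type I collagen genes in bone, by 0.69 (SE 0.069, adjusted p = 0.00213). The calls of the other 5 (P4ha2, P4hb, Lepre1, Crtap and Sec24d) each held in only 1 or 2 of the 6 fits that left 1 library out, and those of Lepre1, Crtap and Sec24d in 5, 5 and 4 of the 8 alternatives. Serpinh1, the collagen chaperone, was at 972, 1157 and 1064 CPM in wild type and at 1241, 1153 and 1262 CPM in double null libraries, which overlapped (log2 fold change 0.19, SE 0.092, adjusted p = 0.189). Of 9 propeptide-removal genes tested 3 were higher and 0 lower, with a median of 0.38. Adamts2, the procollagen N-proteinase, was at 18.54, 14.7 and 14.97 CPM in wild type and at 40.3, 61.8 and 38.9 CPM in double null libraries, a log2 fold change of 1.55 (SE 0.19, adjusted p = 0.00477). Pcolce, the enhancer of C-propeptide removal, rose by 0.91 (SE 0.10, adjusted p = 0.00362), and Adamts14 by 0.64 (SE 0.14, adjusted p = 0.0282), the last in only 2 of the 6 leave-out fits and 6 of the 8 alternatives.

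Of 5 lysyl oxidases only Lox passed, with 0 lower and a list median of 0.32: it rose by 1.48 (SE 0.15, adjusted p = 0.00261). Of 18 receptor and turnover genes 4 were higher and 0 lower, with a median of 0.30. Over all genes tested 6.31% were higher and 7.40% lower, with a median of -0.01. Timp2 rose by 0.53 (SE 0.077, adjusted p = 0.00725) and Ddr2, a fibrillar collagen receptor, by 0.57 (SE 0.11, adjusted p = 0.0183); the calls held in 6 and 4 of 6 leave-out fits. Mrc2 and Timp3 rose by 0.49 and 0.45, with calls that held in 2 and 3. The calls of Ddr2, Mrc2 and Timp3 were lost when all 12 libraries shared a fit, and with Xist as a covariate there (adjusted p 0.204, 0.154 and 0.235). Between Hoxa null Hoxc heterozygous and wild type kidneys 0 genes of these lists passed edgeR's test, as for all genes. Between Hoxa heterozygous Hoxc null and wild type 3 genes of these lists passed, all higher: Loxl2 by 1.15 (SE 0.086, adjusted p = 0.00133), Adamts2 by 0.77 (SE 0.11, adjusted p = 0.0202) and Creb3l1 by 0.45 (SE 0.067, adjusted p = 0.0228). Over all genes tested 0.836% were higher there, and sequencing run cannot be told apart from genotype. The call of Loxl2 held in 6 of 6 leave-out fits and those of Adamts2 and Creb3l1 in 2 each, and Loxl2 was lost with all 12 libraries in the fit (adjusted p = 0.0657) and with Xist as a covariate there (adjusted p = 0.115). Adamts2 was lost in the same 2 fits and with the correction for GC content and length (adjusted p up to 0.158), and Creb3l1 with that correction (adjusted p = 0.0796).

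**Figure D5:**
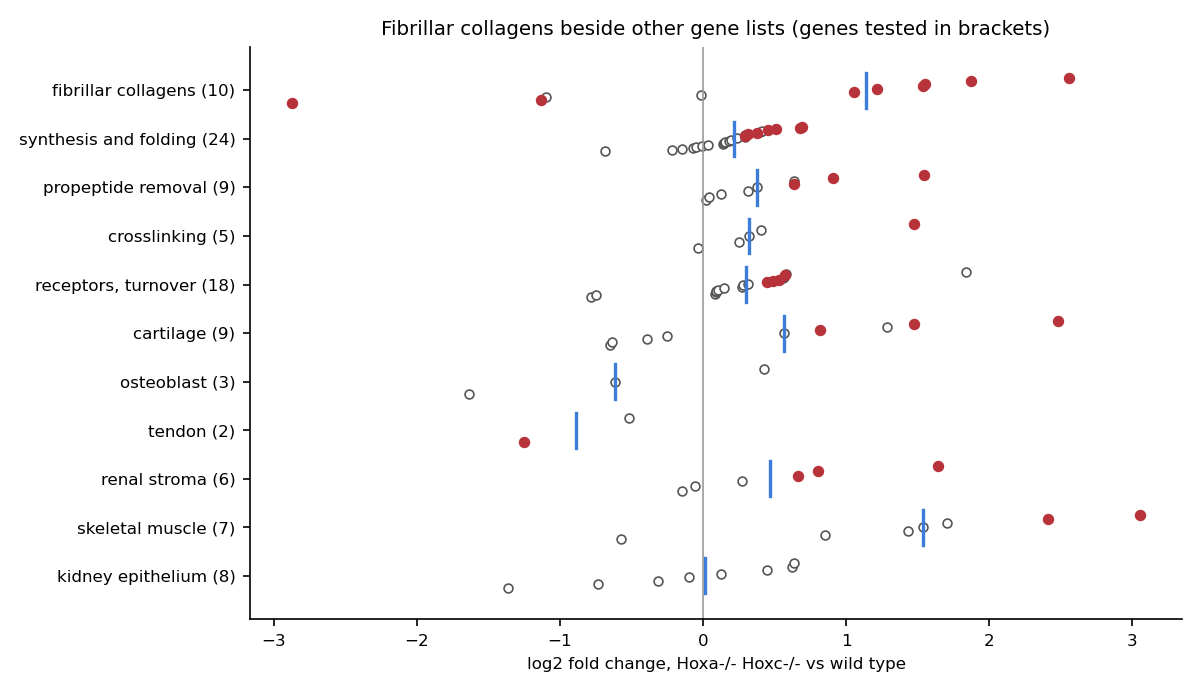
Log2 fold change between double null and wild type kidneys (horizontal axis) of each tested gene of the fibrillar collagens and 10 other lists (vertical axis, genes tested in brackets); filled points passed the test and blue lines are list medians. The fibrillar collagens have a median of 1.14, and the synthesis list a median of 0.21 with 7 of 24 points filled. Over all genes tested 13.7% passed. Comp and Myog passed the filter on low counts through the double null libraries. Their points, and the medians of lists that include them, are not used.

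Markers of cells that make fibrillar collagens were read beside these results, and their part in them was not tested. Over all genes tested between double null and wild type, 6.31% were higher and 7.40% lower, the shares to set beside each list below. Of 13 cartilage genes 12 were in the count table (Snorc was not found) and 9 were tested. Beside Comp, 2 passed as higher in double null than in wild type kidneys and 0 as lower. Without Comp the log2 fold changes went both ways. Matn4 rose by 1.47 (SE 0.23, adjusted p = 0.00847) and Col9a2 by 0.82 (SE 0.18, adjusted p = 0.0282), the last in only 2 of 6 leave-out fits and 6 of 8 alternatives. Comp had 8, 10 and 11 counts in the wild type libraries and 53, 62 and 39 in the double null libraries, so that it passed the filter on low counts through the double null libraries, and neither its call nor its fold change is used. Hapln1 (12.3, 13.1 and 12.7 CPM in wild type, 14.8, 16.8 and 24.9 CPM in double null) and Lect1 (0.53, 0.507 and 0.619 CPM in wild type, 2.04, 0.892 and 1.13 CPM in double null) were higher in all double null libraries and did not pass. Col9a3 was lower in all double null libraries (3.66, 3.97 and 5.05 CPM in wild type, 2.59, 2.17 and 3.35 CPM in double null), with a log2 fold change of -0.65 (SE 0.23, adjusted p = 0.0944) that did not pass, and those of Acan, Col9a1 and Matn1 were negative too, with libraries that overlapped. Ucma was at 0 in every library, and Matn1, Matn3 and Col10a1 were below 1 CPM in every library. Other genes of the list were well above that: Hapln1 was between 9.47 and 25.8, Col9a2 between 6.09 and 18.4 and Col9a1 between 2.60 and 14.02 CPM. Acan, the core proteoglycan of cartilage, was between 0.617 and 2.05 CPM. The list summed to 34.6, 38.2 and 42.2 CPM in wild type, 66.5, 39.4 and 34.9 CPM in Hoxa null Hoxc heterozygous, 38.3, 42.6 and 44.7 CPM in Hoxa heterozygous Hoxc null and 42.8, 47.5 and 64.3 CPM in double null libraries, with library 20 the highest. Hapln1 had the highest CPM of the list in 9 libraries and Col9a2 in the other 3. Of Sox5, Sox6 and Sox9, 0 of 3 passed; Sox9 had a log2 fold change of -0.59 (SE 0.17, adjusted p = 0.0547) and passed without wild type library 30 or double null library 29 and in 3 of 8 alternatives (adjusted p 0.0107 to 0.503).

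Of 7 osteoblast genes 3 were tested and 0 passed; Ibsp was at 0 in every library, and Bglap, Bglap2 and Dmp1 were below 1 CPM. They summed to 11.7, 13.4 and 12.8 CPM in wild type, 16.2, 12.6 and 12.2 CPM in Hoxa null Hoxc heterozygous, 11.2, 11.9 and 15.01 CPM in Hoxa heterozygous Hoxc null and 8.10, 7.92 and 9.18 CPM in double null libraries, with Runx2 the highest in every library. Of 3 tendon genes 2 were tested, and Scx, a transcription factor of tendon cells that also activates type I collagen genes there, fell by 1.25 on the log2 scale (SE 0.29, adjusted p = 0.0319), a call that held in 2 of 6 leave-out fits and was lost when all 12 libraries shared a fit, with or without Xist as a covariate. Tnmd was below 1 CPM throughout, and the tendon genes summed to 13.0, 16.6 and 19.1 CPM in wild type, 31.4, 12.2 and 11.5 CPM in Hoxa null Hoxc heterozygous, 13.8, 12.2 and 16.4 CPM in Hoxa heterozygous Hoxc null and 7.84, 6.47 and 10.2 CPM in double null libraries, with Scx the highest in every library.

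Of 6 stromal genes 3 were higher in double null kidneys and 0 lower, with a median log2 fold change of 0.47. Over all genes tested 6.31% were higher and 7.40% lower, with a median of -0.01. Of the 3 that did not pass, Pdgfrb was at 0.27, Tcf21 at -0.06 and Meis1 at -0.14. Pdgfra, a receptor of interstitial fibroblasts, rose by 0.81 (SE 0.11, adjusted p = 0.00639) and Tbx18, of the ureteric and outer mesenchyme, by 1.64 (SE 0.19, adjusted p = 0.00394). Foxd1, of the cortical stroma, rose by 0.66 (SE 0.11, adjusted p = 0.0102), a call lost when all 12 libraries shared a fit, with or without Xist as a covariate (adjusted p 0.0897 with it and 0.189 without). The stromal genes summed to 675, 794 and 746 CPM in wild type, 986, 761 and 739 CPM in Hoxa null Hoxc heterozygous, 755, 801 and 858 CPM in Hoxa heterozygous Hoxc null and 839, 995 and 969 CPM in double null libraries, with no gene at 0. Pdgfra had the highest CPM of the list in 5 libraries, the 3 double null libraries among them, Pdgfrb in 5 and Tcf21 in 2. The sum was higher in the double null than in the wild type libraries without overlap. It overlapped between double null and the Hoxa heterozygous Hoxc null group. Library 20, which stood apart from the rest, was at 986 CPM. Of 7 skeletal muscle genes tested Myh3 and Myog passed as higher and 0 as lower. Myh3 rose by 2.41 (SE 0.47, adjusted p = 0.0194), a call that held in 4 of 6 leave-out fits and was lost when all 12 libraries shared a fit. Myog had 4, 2 and 6 counts in the wild type libraries and 55, 26 and 16 in the double null libraries; it passed the filter on low counts through the latter, so neither its call nor its fold change is used. Ckm was below 1 CPM throughout, and the muscle genes summed to 3.79, 3.74 and 8.66 CPM in wild type, 8.26, 3.95 and 3.67 CPM in Hoxa null Hoxc heterozygous, 3.7, 7.55 and 7.73 CPM in Hoxa heterozygous Hoxc null and 13.9, 14.5 and 6.40 CPM in double null libraries, with Tnnt3 the highest in 5 libraries, none of them double null. In the other 3 comparisons 0 genes of the cartilage, Sox, osteoblast, tendon, stromal, muscle and kidney lists passed edgeR's test.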

How the data were processed

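RNA-seq of 12 whole kidneys at E18.5 was read from tables the authors deposited in GEO. The deposited counts are expected counts (raw reads per gene, with fractions) made by the authors with Strand NGS on mm10, with reads aligning to more than 1 position removed; the deposited normalized values are on a log2 scale, set by the authors to a median of 0 per gene. The strandedness of counting was not given in the sources used here. For the tests, rounded counts went into edgeR 4.0.16 (R 4.3.3; TMM, filterByExpr with a minimum count of 10, quasi-likelihood test, Benjamini-Hochberg over all genes tested, threshold 0.05) on the 6 libraries of the 2 groups compared. The alternatives tried were library size only, RLE factors, no filter on low counts, limma 3.58.1 with a trend on the deposited log2 values, DESeq2 1.42.0, all 12 libraries in the fit, Xist as a covariate in that fit, a correction for GC content and length in 20 bins, and fits with 1 library left out. The ratio of chains was also computed without length and, chosen after seeing the data, with the length of all exons. Lengths came from GENCODE M21, and tables and plots were made with Python 3.11.15, pandas 2.3.3 and matplotlib 3.10.9. Log2 CPM for correlations used a prior count of 0.5.

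Named were all 10 members, the targeted Hox genes, genes of the lists (synthesis, propeptide removal, crosslinking, receptors and turnover, cartilage, Sox5, Sox6 and Sox9, osteoblast, tendon, renal stroma, skeletal muscle, kidney epithelium), those with the largest and smallest change past the threshold first, and the 5 genes most correlated with Col1a1 and with Col2a1. Members and lists were chosen with earlier results of these data known. After the tests 1 of the 9 kidney markers was left out because it is withheld from reporting, so sums and figure points of that list cover 8. A floor of 3 counts corresponds to 0.0614 to 0.116 CPM; reads carried no molecular identifiers, so it covers counting error only.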

Additional observations from a re-analysis of the deposited data

How the results depend on the processing

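Between double null and wild type kidneys the members kept their direction and side of the threshold in all 80 results under the 8 alternatives with a test. With 1 library left out, 53 of 60 did, 3 lost the call, 1 gained it and 3 changed sign (Col11a1, between -0.25 and 0.10). The chain ratio moved by less than the spread between replicates without length and with all exons. Genes that passed between double null and wild type numbered 3371 with DESeq2, 1194 with all 12 libraries in the fit, 1020.0 with Xist as a covariate and 535 to 3386 with 1 library left out.

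For Hoxa null Hoxc heterozygous against wild type, DESeq2 called 22 genes, the fit of all 12 libraries 2 and leave-out fits 0 to 8. With Xist as a covariate the log2 fold change was -0.10 for Col5a1 and 0.13 for Col2a1; with 1 library left out it ran from -0.050 to 0.28 for Col5a1, from -0.030 to 0.23 for Col5a3 and from -0.50 to 0.16 for Col2a1.

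For Hoxa heterozygous Hoxc null against wild type, DESeq2 called 6 members and 1309 genes. Members that passed numbered 0 with limma, with all 12 libraries in the fit (150 genes), with Xist as a covariate (136 genes) and with the correction for GC content and length (89 genes), and 0 to 6 with 1 library left out (60 to 549 genes). The log2 fold change of Col2a1 was 0.11 with Xist as a covariate and -0.27 to 0.18 with 1 library left out, and that of Col11a1 was -0.072 with the correction for GC content and length and -0.015 to 0.21 with 1 library left out.

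For double null against Hoxa null Hoxc heterozygous, DESeq2 called 8 members and 554 genes, the fit of all 12 libraries 7 and 557, and that with Xist as a covariate 7 and 667. Without the filter 1 gene passed, and with the correction for GC content and length 2. Leave-out fits gave 0 to 7 members and 0 to 687 genes, and Col11a1 between -0.052 and 0.31. The cause of each change was not tested. With 3 libraries a group and 28616877 counts or more per library, Col11a2 rests on few counts (8 in double null library 27) and small differences of it could not be detected.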
